A study of Mus musculus with 4 samples.

Results

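The 9 genes described here serve the uptake of vitamin A, the cleavage of carotenoids, and the synthesis and breakdown of retinoic acid. In the upper case of the deposited table they are the rows STRA6, RBP2, ISX, BCMO1, RDH7, ALDH1A1, ALDH1A2, CYP26A1 and CYP26B1. They were taken by symbol from 29871 gene rows, in which all 9 were found, and they were chosen with measured values of the comparison below in view, so their differences are a description and carry no test. The samples were adenomas of the mouse small intestine, profiled by RNA-seq. The control group had the genotype APC Min/+, a truncating allele of the tumour suppressor Apc that all 4 samples carried, and its 2 libraries are called WT-1 and WT-2 after their titles. The other group had the genotype PAF KO; APC Min/+, with 2 libraries called KO-1 and KO-2, and the series asked how mRNA differs in adenomas without PAF, the PCNA-associated factor encoded by Pclaf. The labels do not say how the knockout was made, how old the mice were or where along the intestine the adenomas lay. They also do not say whether libraries came from separate animals. All spreads are thus between libraries, and that of the controls may be technical.

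Vitamin A enters the intestine as retinol, retinyl esters and provitamin A carotenoids. In the enterocyte, carotenoids are cleaved to retinal, retinol is bound by a cellular binding protein and esterified for export, and a small part is oxidized through retinal to retinoic acid. Retinoic acid acts through nuclear receptors that bind DNA as dimers on direct repeats of a short hexamer, and CYP26 enzymes break it down.

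Promoter sequences were searched on both strands for direct repeats of the hexamer AGGTCA, in which the first base could also be G and the third T, with a spacer of 1, 2 or 5 bases (DR1, DR2 and DR5), arrangements known to bind nuclear receptor dimers. The windows were the 250 bases before each annotated start in RefSeq's GRCm38.p6 annotation, which is not the build of the deposited table. All 9 genes matched, with 14 windows, since some have several starts. DR5 occurred in 0.0883% and DR1 in 0.164% of 32851 windows of that length. Each occurred in the windows of 1 of the 9 genes, and DR2, in 0.174% of all windows, in those of none of them. The promoters of Cyp26a1 and Bcmo1 are shown first because they hold these repeats. In Cyp26a1 (chr19:37697558-37697807, plus strand) a DR5 spans positions -32 to -16 from the start, and in Bcmo1, named Bco1 in RefSeq (chr8:117095615-117095864, plus strand), a DR1 spans positions -56 to -44. Capitals mark the repeat with its spacer, and in both the hexamers read on the minus strand.
Cyp26a1: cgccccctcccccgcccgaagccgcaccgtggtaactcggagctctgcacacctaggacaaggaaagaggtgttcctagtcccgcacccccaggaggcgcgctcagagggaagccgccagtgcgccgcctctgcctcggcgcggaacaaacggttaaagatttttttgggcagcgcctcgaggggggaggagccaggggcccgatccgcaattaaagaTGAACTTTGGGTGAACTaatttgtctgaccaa
Bcmo1: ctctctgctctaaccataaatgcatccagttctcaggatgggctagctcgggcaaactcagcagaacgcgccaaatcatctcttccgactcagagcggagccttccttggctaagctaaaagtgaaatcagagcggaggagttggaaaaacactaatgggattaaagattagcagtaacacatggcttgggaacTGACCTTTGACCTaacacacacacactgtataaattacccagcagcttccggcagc
The windows of Rbp2 (chr9:98490287-98490536, plus strand) and Isx (chr8:74872924-74873173, plus strand) are shown as examples of genes with the same order of libraries. They held lone hexamers, in capitals, 2 in Rbp2 and 1 in Isx, and no repeat of these kinds. Aldh1a1 had that order of libraries too, and its windows, not shown, held 0 and 1 hexamers. At least 1 hexamer stood in 38.6% of all windows, and in 7 of the 14 windows here.
Rbp2: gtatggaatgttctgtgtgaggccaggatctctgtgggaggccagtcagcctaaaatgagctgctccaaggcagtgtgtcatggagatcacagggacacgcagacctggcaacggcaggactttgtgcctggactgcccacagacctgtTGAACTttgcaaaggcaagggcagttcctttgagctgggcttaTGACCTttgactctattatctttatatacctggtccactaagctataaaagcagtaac
Isx: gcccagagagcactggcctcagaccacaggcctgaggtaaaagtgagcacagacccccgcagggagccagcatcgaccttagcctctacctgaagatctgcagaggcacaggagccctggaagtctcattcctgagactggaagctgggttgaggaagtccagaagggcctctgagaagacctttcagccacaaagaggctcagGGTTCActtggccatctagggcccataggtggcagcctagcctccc
Such matches describe the letters of these windows and do not show binding.

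Levels are in FPKM, fragments scaled to the length of the transcript and to library size. The libraries held about 13100000 (WT-1), 17400000 (WT-2), 15400000 (KO-1) and 24300000 (KO-2) fragments, as estimated from the smallest step of FPKM in genes with 1 transcript. Pclaf (row 2810417H13Rik) stood at 17.9 FPKM in WT-1, 17.8 in WT-2, 4.13 in KO-1 and 11.4 in KO-2; the deleted part of the gene is not stated, so this is a weak check of the labels. The control libraries differed by little more than counting noise (mean chi-square per gene 1.99 over 913 genes, where counting noise alone gives about 1), whereas the knockout libraries gave 68.6 over 949 genes. Xist stood at 46.4 FPKM in KO-2 and at most 0.00861 elsewhere, and the Y-linked Eif2s3y at 0 in KO-2 and 25.98 to 31.7 elsewhere. KO-2 thus had the female pattern of these sex-linked genes and the other 3 libraries the male pattern. KO-1 and KO-2 therefore did not come from the same animal. Epithelial markers (6 of 6 over the filter, Epcam and keratins among them) were high in all 4 libraries, with sums of 5002, 4782, 4734 and 5402 FPKM in the order WT-1, WT-2, KO-1, KO-2.

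The genes spanned a wide range of levels. Rbp2 was highest, with a mean of 1921 FPKM over the 4 libraries, followed by Stra6 (132), Isx (41.2), Aldh1a1 (29.7), Rdh7 (7.62), Aldh1a2 (5.33), Cyp26b1 (1.76), Bcmo1 (0.736) and Cyp26a1 (0.701). The ranges over the 4 libraries, with both groups pooled, overlapped between each pair of Stra6, Isx and Aldh1a1. The range of Rdh7 overlapped those of Aldh1a2, Cyp26b1, Bcmo1 and Cyp26a1. Ranges also overlapped between each pair of Cyp26a1, Cyp26b1 and Bcmo1. Such overlap does not rank genes within a library, and Isx stood above Aldh1a1 in every library. Stra6 stood at 226 and 223 FPKM in WT-1 and WT-2, where Isx stood at 35.2 and 39.3. In KO-1 both Isx and Aldh1a1 stood above Stra6. A mean of at least 1 FPKM was required for the fit across all rows; 7 of the 9 genes passed, and Bcmo1 and Cyp26a1 did not.

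**Figure D1:**
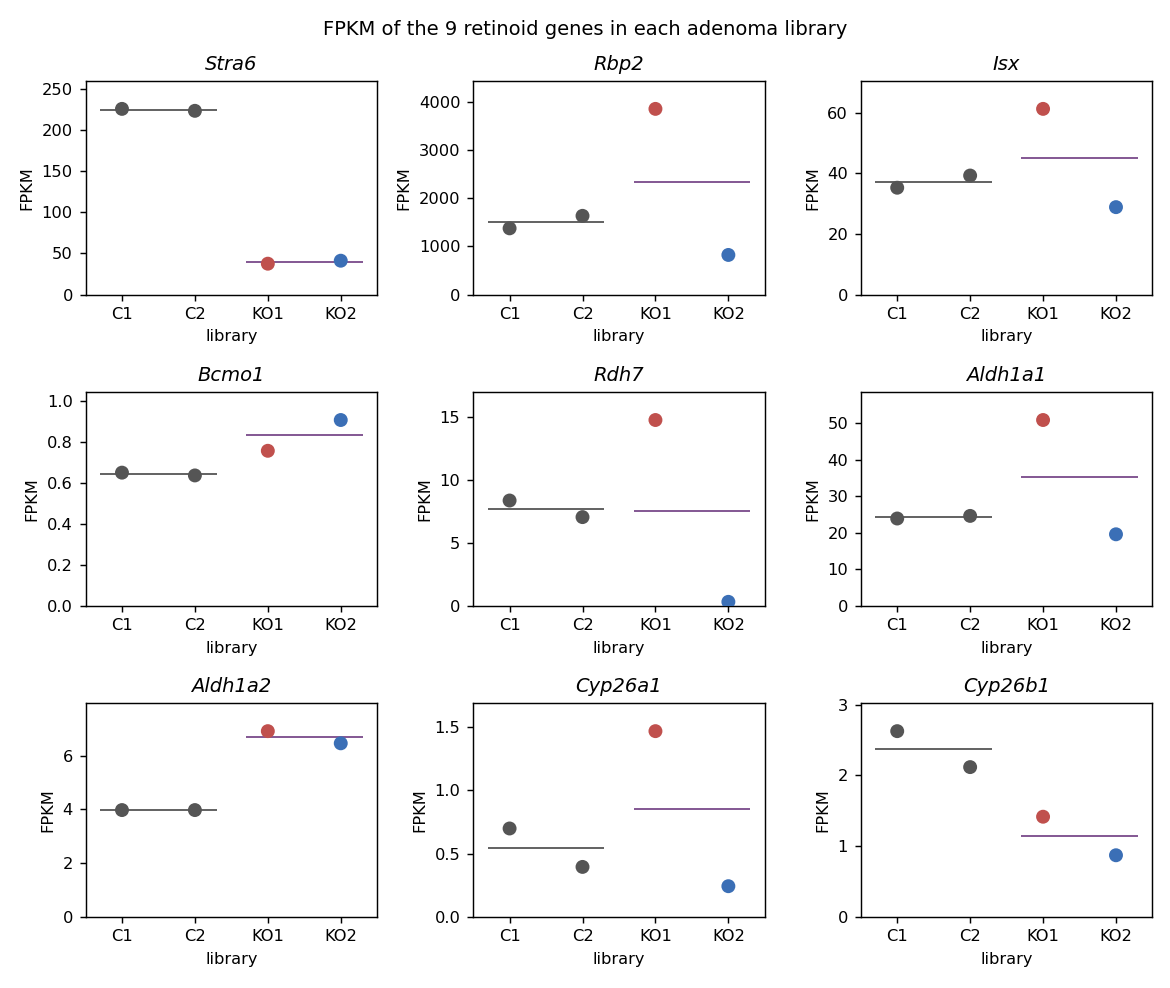
FPKM of each of the 9 genes (vertical axes, linear from 0) in the control libraries WT-1 and WT-2 (C1, C2) and the PAF knockout libraries KO-1 and KO-2; horizontal lines are group means. Stra6 lies at 37.5 and 41.1 in the knockouts against 226 and 223 in the controls, while Rbp2, Isx, Rdh7, Aldh1a1 and Cyp26a1 are highest in KO-1 and lowest in KO-2.

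Stra6 encodes the cell surface receptor that takes up retinol from its plasma carrier RBP4. Its level was 226 FPKM in WT-1, 223 in WT-2, 37.5 in KO-1 and 41.1 in KO-2. The knockout libraries lay far below both controls and close to each other. The group means were 225 ± 1.67 and 39.3 ± 2.57 FPKM (SD, n = 2 each), and the control mean was 5.99 times the level of KO-1 and 5.46 times that of KO-2. On the log2(FPKM + 1) scale, used for all differences in this account, the difference was -2.49, and 129 of 13716 tested rows had a difference at least as low. The values rest on about 9097 (WT-1), 11957 (WT-2), 1776 (KO-1) and 3074 (KO-2) fragments.

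Rbp2 encodes cellular retinol-binding protein 2, an abundant enterocyte protein that carries retinol and retinal to the enzymes that act on them. Its level was 1374 FPKM in WT-1, 1634 in WT-2, 3855 in KO-1 and 822 in KO-2. The knockout libraries lay on opposite sides of the controls, 4.69 times apart. Their differences from the control mean were 1.36 and -0.87, so the mean difference of 0.25 describes neither library.

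Isx encodes an intestine-specific homeobox factor known to repress Bcmo1 and the carotenoid transporter gene Scarb1 in response to retinoic acid. It stood at 35.2 FPKM in WT-1, 39.3 in WT-2, 61.3 in KO-1 and 28.8 in KO-2. The order of libraries was that of Rbp2, with a smaller gap of 2.12 times between the knockouts. The differences from the control mean were 0.70 in KO-1 and -0.36 in KO-2.

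Bcmo1 encodes the oxygenase that cleaves beta-carotene into retinal. It was low everywhere, at 0.648 FPKM in WT-1, 0.635 in WT-2, 0.755 in KO-1 and 0.905 in KO-2. Both knockouts were above both controls, at 1.18 and 1.41 times the control mean, on only about 20 fragments in WT-1, 26 in WT-2, 27 in KO-1 and 51 in KO-2. KO-1, with the most Isx, and KO-2, with the least Isx, both had more Bcmo1 than either control, on too few fragments for a firm order. Scarb1, which also takes up other lipids, stood at 21.3 FPKM in WT-1, 22.4 in WT-2, 17.6 in KO-1 and 13.6 in KO-2. It was thus lowest in KO-2, where Isx was also lowest. A link of Isx to either gene was not tested.

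Rdh7 encodes a short-chain dehydrogenase that oxidizes retinol and some steroids. Its level was 8.36 FPKM in WT-1, 7.04 in WT-2, 14.8 in KO-1 and 0.304 in KO-2. The gap between the knockout libraries, 48.6 times, was the widest of the 9 genes and rested on about 382 and 12 fragments. Of its transcript, 13.2% of all windows of 50 bases also stood in transcripts of other genes, Rdh1 and a pseudogene among them, so its value is uncertain where reads could be split. The related Rdh9 had another pattern, with 18.5 FPKM in WT-1, 17.4 in WT-2, 3.83 in KO-1 and 14.1 in KO-2, and Rdh1 was low, with 1.36, 1.83, 0.387 and 0.672 FPKM in that order.

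Aldh1a1 and Aldh1a2 encode retinal dehydrogenases, which make retinoic acid from retinal. Aldh1a1 stood at 23.9 FPKM in WT-1, 24.6 in WT-2, 50.9 in KO-1 and 19.5 in KO-2, again with the knockouts on either side of the controls. Its differences from the control mean were 1.04 in KO-1 and -0.30 in KO-2. It shares 6.54% of its windows of 50 bases with Aldh1a7, which stood at 4.38, 4.25, 7.93 and 4.73 FPKM in the same order of libraries.

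Aldh1a2 had a different pattern. Its level was 3.98 FPKM in both controls, 6.92 in KO-1 and 6.46 in KO-2. Both knockouts were higher and close to each other, with group means of 3.98 ± 0.000156 and 6.69 ± 0.320 FPKM (SD, n = 2 each) and a difference of 0.63. The control SD is far below the counting error of about 118 and 157 fragments, so it understates the error. In the intestine Aldh1a2 is known from stromal and dendritic cells as well as epithelium. Bulk RNA cannot tell more cells of a type from more RNA per cell.

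Cyp26a1 and Cyp26b1 encode hydroxylases that inactivate retinoic acid, and Cyp26a1 is a classical retinoic acid target through repeats like the DR5 printed above. Cyp26a1 stood at 0.698 FPKM in WT-1, 0.394 in WT-2, 1.47 in KO-1 and 0.242 in KO-2, on about 16, 12, 40 and 11 fragments. KO-1 was the highest, and the other 3 libraries rest on too few fragments for a firm order. Cyp26b1 was lower in both knockouts than in both controls, with 2.63 FPKM in WT-1, 2.12 in WT-2, 1.42 in KO-1 and 0.871 in KO-2. The knockouts were at 59.7% and 36.7% of the control mean, with group means of 2.37 ± 0.360 and 1.14 ± 0.386 FPKM (SD, n = 2 each) and a difference of -0.66.

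Of the 7 genes over the filter, 2 were lower in both knockouts than in both controls (Stra6 and Cyp26b1), where 30.2% of all tested rows were, and 1 was higher in both (Aldh1a2), where 21.5% were. The other 4 (Rbp2, Isx, Rdh7 and Aldh1a1) were above both controls in KO-1 and below both in KO-2, an arrangement of 7.8% of all tested rows. The same 4 were more than 1 apart between the knockout libraries, as were 18.7% of all rows. Because the genes were chosen on these values, nothing is read from those counts. Over all tested rows the median difference from the control mean was -0.11 in KO-1 and 0.087 in KO-2.

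**Figure D2:**
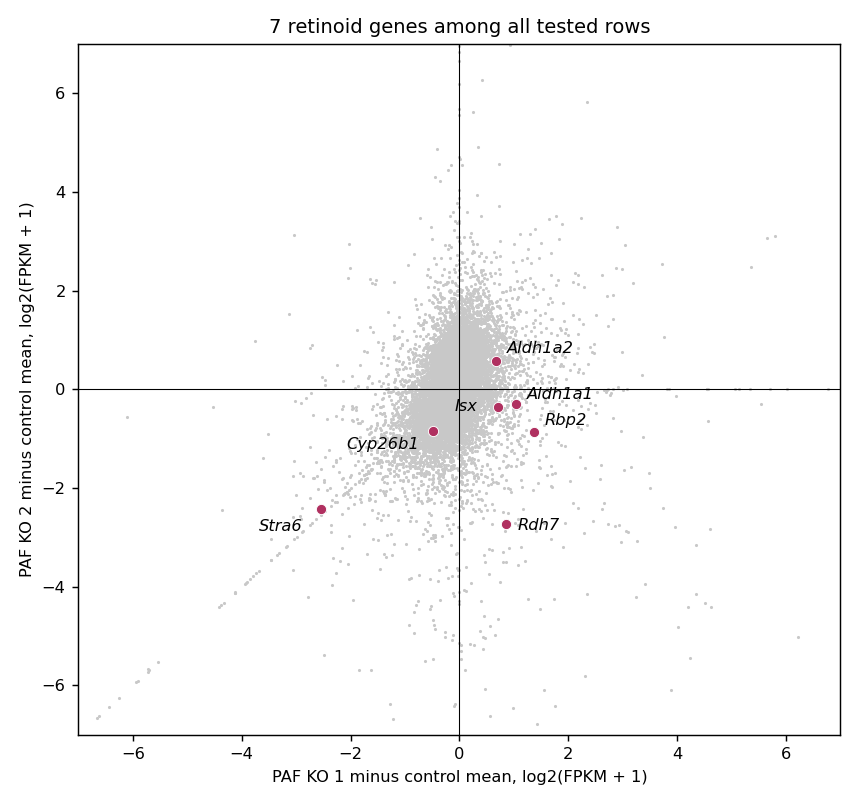
Difference from the control mean on the log2(FPKM + 1) scale in KO-1 (horizontal) and KO-2 (vertical) for 13716 tested rows (grey, 46 of them outside the range shown) and the 7 genes over the filter (red). Stra6 lies near the diagonal at -2.55 and -2.42, and Rbp2, Isx, Rdh7 and Aldh1a1 lie to the right of 0 and below 0.

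The libraries also differed in markers of intestinal position and of cell types. Proximal small-intestinal markers (9 of 9 over the filter) summed to 105 FPKM in WT-1, 104 in WT-2, 2565 in KO-1 and 80.8 in KO-2. Most of the KO-1 sum was Fabp1, a fatty acid-binding protein gene at 2367 FPKM there, and the other 8 summed to 55.2 in WT-1, 53.8 in WT-2, 198 in KO-1 and 40.3 in KO-2. In KO-1 7 of the 9 were above both controls, and Slc40a1 and Onecut2 were below both. In KO-2 7 of the 9 were below both controls, and Slc40a1 and Pdx1 were above both. Gata4, a factor of proximal identity, stood at 8.72 FPKM in WT-1, 8.16 in WT-2, 56.3 in KO-1 and 2.25 in KO-2. For the sum of all 9 and for Gata4, KO-1 was highest and KO-2 lowest, which is the order of libraries seen for Rbp2, Isx, Rdh7 and Aldh1a1. Distal markers (9 of 9) summed to 1973 FPKM in WT-1, 2033 in WT-2, 379.7 in KO-1 and 1798 in KO-2. All 9 were below both controls in KO-1 and 8 were in KO-2, where Guca2a was above both at 971 FPKM. Enterocyte markers (20 of 20) summed to 9082 FPKM in WT-1, 9641 in WT-2, 13524 in KO-1 and 1719 in KO-2. In KO-2 all 20 were below both controls, and in KO-1 11 were below and 8 above, Fabp1 and Apoa4 among those above. No marker of these 3 lists was at 0 in all libraries, and the part of position and of enterocyte content in the values of Rbp2, Isx, Rdh7 and Aldh1a1 was not tested.

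For Stra6 and Cyp26b1 both knockout libraries lay below the controls. The distal sum also lay below both controls in both knockouts. It was lower in KO-1 than in KO-2, but of its markers Amn, Osr2 and Nt5e were lower in KO-2. Below both controls in both knockouts were also 11 of the 20 enterocyte markers. The enterocyte sum was nevertheless higher in KO-1, where Fabp1 (2367 FPKM against 49.7 and 50.4) and Apoa4 (3251 against 948 and 972) stood far above the controls. The part of position and of enterocyte content in the values of Stra6 and Cyp26b1 was not tested. Beside Aldh1a2, fibroblast markers (12 of 12 over the filter) summed to 395, 399, 442 and 825 FPKM, smooth muscle markers (8 of 8) to 191, 192, 203 and 734 FPKM and dendritic cell markers (4 of 9) to 14.98, 14.3, 7.06 and 18.3 FPKM, each in the order WT-1, WT-2, KO-1, KO-2. Endothelial markers (9 of 9) summed to 78.7, 80.7, 100.4 and 113 FPKM. The fibroblast, smooth muscle and endothelial sums were above both controls in both knockouts, as Aldh1a2 was, and were higher in KO-2 than in KO-1. The first 2 of these sums were little above the controls in KO-1, where Aldh1a2 was 1.74 times the control mean. Below both controls were 3 of 12 fibroblast, 2 of 8 smooth muscle and 1 of 9 endothelial markers in KO-1. For KO-2 these counts were 2, 0 and 1. Of the 4 dendritic cell markers over the filter, all 4 were below both controls in KO-1, and in KO-2 2 were below and 2 above. All marker sums take in every gene of a list, also those under the filter. Mesothelial markers (3 of 7) summed to 1865, 1999, 2723 and 2381 FPKM, nearly all of it the epithelial keratin Krt19, and the mesothelial factor Wt1 was at most 0.0534 FPKM. The part of these cell types in the value of Aldh1a2 was not tested. Goblet cell markers (7 of 8) summed to 6053, 7110, 9780 and 13496 FPKM. All 7 over the filter were above both controls in KO-1, while in KO-2 5 were above and 2, Fcgbp and Zg16, were below. Of pancreatic acinar markers 1 of 10 passed (Cela1), with sums of 84.4 to 97.96 FPKM and Cpa1, Cela2a, Cela3b, Prss2 and Amy2a5 at 0, and of hepatocyte markers 4 of 8, with sums of 85.1, 84.3, 22.1 and 88.96 FPKM and Serpina1a at 0.

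**Figure D3:**
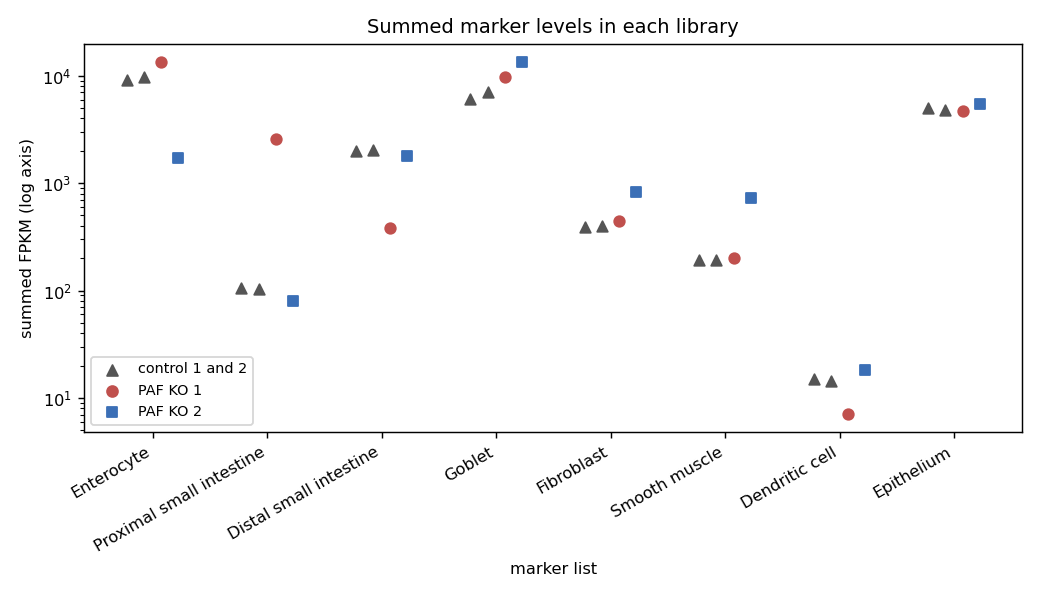
Summed FPKM (log axis) of 8 marker lists in the control libraries (grey triangles), KO-1 (red circles) and KO-2 (blue squares). The proximal sum is 2565 in KO-1 and 80.8 to 105 in the other libraries, while epithelial markers stay between 4734 and 5402.

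A wider list of 59 other genes of the retinoid pathway held 58 with a row, of which 43 passed the filter. In the fit across all rows (limma, Benjamini-Hochberg adjustment) 0 of the 43 were called at an adjusted p under 0.05, with a lowest adjusted p of 0.242, where 10 of 13716 rows, or 0.0729%, were called. At an unadjusted p under 0.05 there were 7, of which 1 was higher and 6 were lower, where 13.2% of all rows passed. In both knockouts 7 were higher and 13 lower than in both controls, beside the shares of all rows given above. A further 8 were above both controls in KO-1 and below both in KO-2, and 9 the reverse, where 7.8% and 22.6% of all rows were. The median difference was -0.09 over the list and 0.00345 over all tested rows, and that of the list changed sign under quantile normalization (0.019) and with no filter (0.0039). Without KO-1 the list had 26 called genes (10 higher, 16 lower), and without KO-2 also 26 (13 higher, 13 lower), while 61.2% and 20.7% of all rows were called, in fits where the lone knockout is assumed to vary like the controls.

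**Figure D4:**
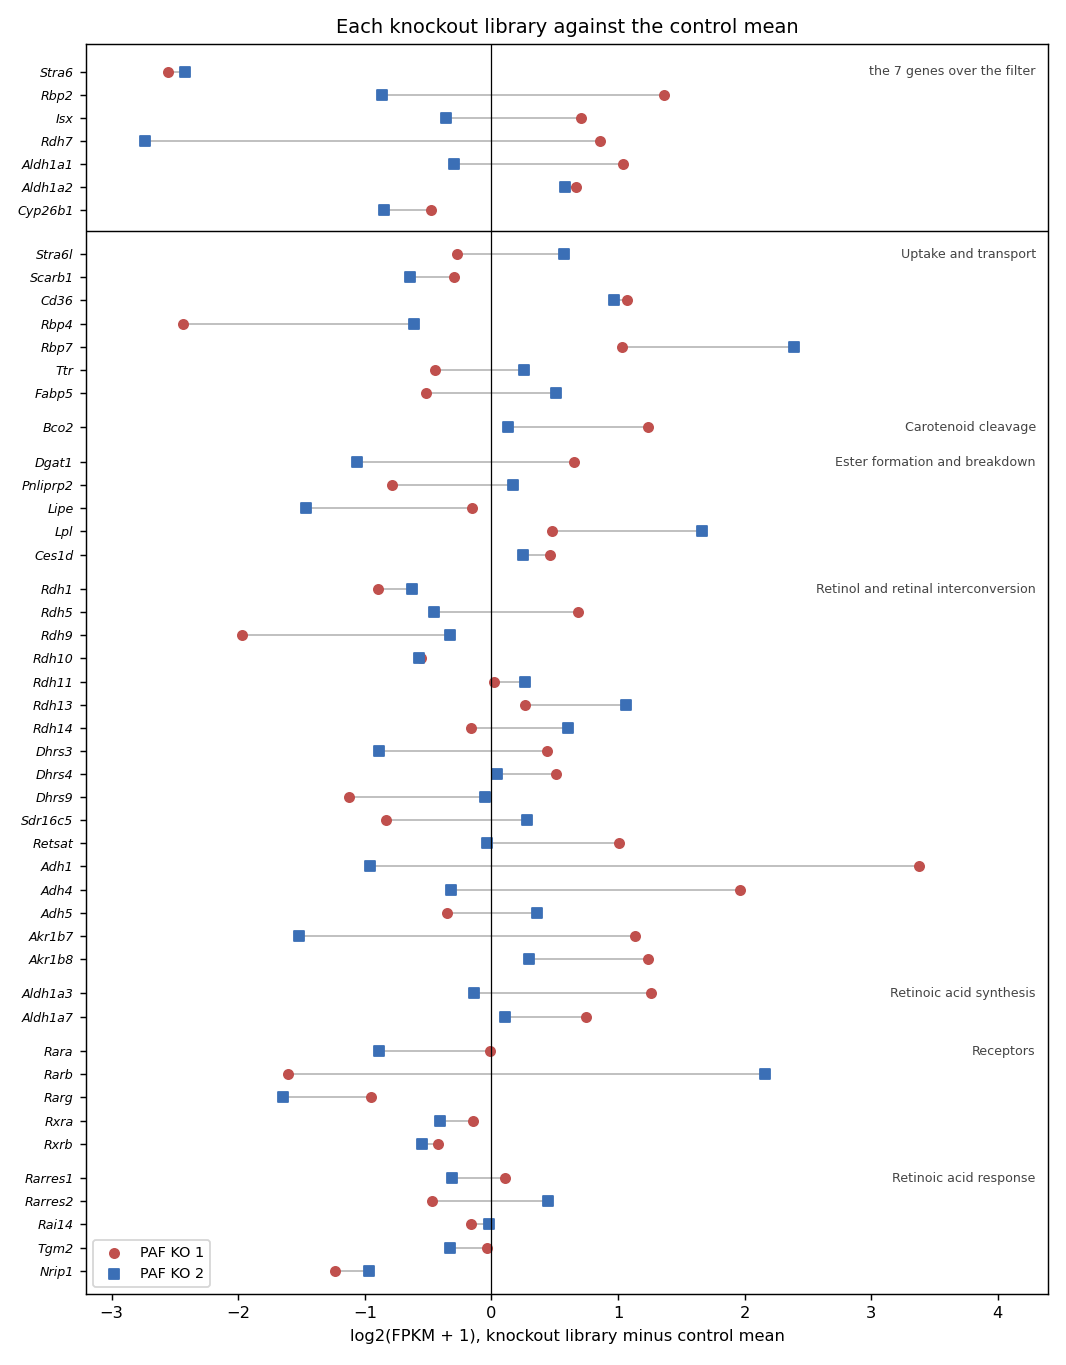
Difference of each knockout library from the control mean on the log2(FPKM + 1) scale for the 7 genes over the filter (top) and 42 other retinoid genes by role. Circles are KO-1 and squares KO-2; for Adh1, Rarb, Akr1b7 and Rdh7 they lie far apart on opposite sides of 0.

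Among transport genes, Cd36, a receptor for fatty acids, stood at 1.66 FPKM in WT-1, 2.04 in WT-2, 4.98 in KO-1 and 4.58 in KO-2 (difference 1.02, SE 0.195; limma adjusted p = 0.257). The plasma retinol carrier Rbp4, the ligand of STRA6, had 44.3 FPKM in WT-1, 47.2 in WT-2, 7.65 in KO-1 and 29.6 in KO-2, so it was lower in both knockouts, as Stra6 was. Of the cellular binding proteins, Rbp7 had 1.59, 0.399, 2.89 and 8.99 FPKM in the same order, and Crabp2, which carries retinoic acid to the nucleus, was listed at 0 in the controls and at 0.256 and 0.234 FPKM in the knockouts.

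Bco2, the oxygenase that cleaves carotenoids off centre, had 5.33 FPKM in WT-1, 7.12 in WT-2, 15.9 in KO-1 and 6.84 in KO-2. Of the esterifying enzymes, Lrat was at most 1.05 FPKM, while Dgat1 had 85.9 FPKM in WT-1, 85.97 in WT-2, 136 in KO-1 and 40.7 in KO-2, with the knockouts on either side of the controls as for Rbp2. Lpl, a lipoprotein lipase that also acts on retinyl esters, had 0.161, 0.512, 0.849 and 3.198 FPKM in the same order.

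Of the enzymes that interconvert retinol and retinal, Rdh10, which makes retinal for retinoic acid synthesis, had 93.1 FPKM in WT-1, 86.4 in WT-2, 60.5 in KO-1 and 59.9 in KO-2 (difference -0.57, SE 0.159; limma adjusted p = 0.326). Adh1, an alcohol dehydrogenase with activity on retinol, had the widest gap between the knockouts on the log2(FPKM + 1) scale among the 43, with 27.7 FPKM in WT-1, 26.7 in WT-2, 291 in KO-1 and 13.5 in KO-2. Dhrs3, which reduces retinal and is induced by retinoic acid, had 21.2, 21.5, 29.3 and 11.1 FPKM in the same order, and the retinol saturase gene Retsat 13.2, 13.4, 27.8 and 12.95 FPKM. Those 3 genes and Dgat1 shared the arrangement of Rbp2, above both controls in KO-1 and below both in KO-2. So did Aldh1a3 and also Rdh5, Adh4 and Akr1b7, the last 3 named after their values were seen. These are all 8 such genes of the 43, and 9 of the 43 had the reverse arrangement. Over all tested rows the shares were 7.8% and 22.6%. Akr1b8, an aldo-keto reductase, had 44.6, 44.96, 107 and 55.3 FPKM, and Rdh11 21.9, 22.97, 22.8 and 27.1 FPKM. Rdh16 was at most 1.10 FPKM, and Rdh19 was listed at 0 in all 4 libraries.

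Aldh1a3, another retinal dehydrogenase, had 14.2 FPKM in WT-1, 13.7 in WT-2, 34.8 in KO-1 and 12.6 in KO-2, the order of Aldh1a1 rather than that of Aldh1a2. Cyp26c1, of the same family as Cyp26a1, was at most 0.0439 FPKM. Among the receptors, Rarg was lower in both knockouts, with 21.1 FPKM in WT-1, 19.3 in WT-2, 9.93 in KO-1 and 5.76 in KO-2 (difference -1.30, SE 0.295; limma adjusted p = 0.291). Rarb, itself a retinoic acid target, had 21.9 FPKM in WT-1, 17.8 in WT-2, 5.801 in KO-1 and 91.8 in KO-2. It was below both controls in KO-1 and above both in KO-2, as were 22.6% of all tested rows, and Cyp26a1 was highest in KO-1. Rara had 20.2, 20.04, 20.01 and 10.4 FPKM and Rxra 21.3, 21.4, 19.3 and 15.8 FPKM. Nrip1, a corepressor induced by retinoic acid, had the lowest p of the list, with 25.5 FPKM in WT-1, 25.7 in WT-2, 10.3 in KO-1 and 12.6 in KO-2 (difference -1.10, SE 0.176; limma adjusted p = 0.242).

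The rows most like each gene over the 4 libraries were found by the root mean square difference of centred log2(FPKM + 1) values among 11457 other rows, given here in brackets. Stra6 was most like Krt6a (0.0847), a keratin gene, 9530003J23Rik (0.0983) and Wif1 (0.139), which encodes a secreted Wnt inhibitor and had 322, 316, 65.3 and 71.3 FPKM. Rbp2 was most like Sprr2b (0.0843), Cybrd1 (0.0855), which encodes the duodenal iron reductase and is among the proximal markers, and Slc25a45 (0.109). Isx was most like Shf (0.0279), Slc26a6 (0.03496), which encodes an apical anion exchanger, and Hoxa4 (0.0401). For Rdh7 they were Gpx2-ps1 (0.102), Cyp3a25 (0.135) and Gm10768 (0.145). For Aldh1a1 they were Pla2g12b (0.0344), Rab30 (0.0505) and Igf2 (0.0545). Aldh1a2 was most like Ednrb (0.0219), an endothelin receptor gene, Liph (0.02398) and Prkca (0.0267), and Cyp26b1 like Zfp516 (0.0294), Padi2 (0.0407) and Cbx7 (0.0421). With 4 libraries such likeness is a description.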

How the data were processed

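RNA of 4 adenoma libraries was measured by sequencing. The authors deposited a table of FPKM values, 1 column per library. Per the submitters' processing notes, TopHat2, Cuffdiff and mouse build mm9 were used. Neither versions, settings nor annotation are stated in the sources used here. Because FPKM is already scaled, no count test was run. Repeated symbols (84 of 29955 rows) were resolved by keeping the more abundant row. The fit took the 13716 rows whose mean was 1 FPKM or more. It used limma 3.58.1 (R 4.3.3) on log2 of FPKM plus 1, with a variance trend, and Benjamini-Hochberg adjustment over all rows fitted. That scale understates changes of low genes, and the p-values reflect only the spread between these libraries. The steps were tested on simulated data. Fragments per gene are approximate, from FPKM, the longest GENCODE transcript and the estimated depth. An exact 0 can be a failed estimate.

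The 9 genes, the wider list and the marker lists were chosen with earlier results of these data known. Named genes were the 9, a fixed part of the wider list, up to 4 of its genes in each direction without overlap between groups and with the smallest p, and the 3 rows most like each gene over the filter. Of the wider list 1 gene is counted but not reported here on its own. Marker genes were named as examples after their values were seen. Alternatives were a pseudocount of 0.1, no filter, a filter at 5 FPKM, quantile normalization, median centring, the replicate number as a block and each library left out.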

Additional observations from a re-analysis of the deposited data

How the results depend on the processing

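Depth limits Bcmo1, Cyp26a1 and, in KO-2, Rdh7, which rest on few fragments. Filters and blocks cannot change the difference of a gene in this design, so only the pseudocount and the scalings could. Under the other pseudocount, filters, scalings and blocks, 0 of 48 differences of the 7 genes over the filter changed sign. With 1 library left out, 4 of 28 did: Rbp2 (-0.87), Isx (-0.36) and Aldh1a1 (-0.30) without KO-1, and Rdh7 (0.86) without KO-2. The pseudocount of 0.1 gave -1.67 for Rdh7 (-0.94 with 1), -1.02 for Cyp26b1 and 0.74 for Aldh1a2, and quantile normalization gave 0.095 for Rbp2 (0.25 without).

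Over all rows limma called 10, and 4 with no filter. With 1 library left out it called between 0 (without either control library) and 8397 (without KO-1), and 2833 without KO-2. The wider retinoid list had 0 called genes, and 0 to 26 with 1 library left out. Its median of -0.09 was -0.18 with a filter at 5 FPKM, -0.033 under median centring, 0.0039 with no filter and 0.019 under quantile normalization, and -0.14 to -0.030 with 1 library left out. The cause of these shifts was not tested.

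Deviations of same-numbered libraries correlated at -0.11 over tested rows, and nothing in the labels pairs them. With the replicate number as a block 13 rows were called and 0 of the wider list. The median of that list was -0.09 as before, since a block shared evenly by both groups leaves differences unchanged. The crossed pairing, added after seeing the data, also gave 13 and 0.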

Other observations

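Retinyl esters leave the enterocyte in chylomicrons. Of the genes for their assembly, Apoa4 stood at 948 FPKM in WT-1, 972 in WT-2, 3251 in KO-1 and 10.2 in KO-2. Mttp, which encodes the transfer protein that lipidates apolipoprotein B, stood at 87.9 FPKM in WT-1, 82.4 in WT-2, 235 in KO-1 and 30.99 in KO-2. Apob itself stood at 135 FPKM in WT-1, 129.8 in WT-2, 155 in KO-1 and 72.2 in KO-2. These 3 had KO-1 highest and KO-2 lowest, and they were chosen from the enterocyte list after their values were seen. Apoa1, another chylomicron apolipoprotein gene of that list, stood at 4619 FPKM in WT-1, 5001 in WT-2, 4799 in KO-1 and 381 in KO-2, with KO-1 between the controls and KO-2 lowest.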
